A study of Mus musculus with 24 samples.

Results

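The comparison described here sets V5, the middle-tip zone of the mouse jejunal villus, against V4, the middle zone below it. Its members are the 8 of 24 libraries that carry these zone labels, 4 of V5 and 4 of V4, and within a mouse the V5 and V4 libraries come from the same animal. The study sequenced messenger RNA of jejunal epithelial cells in bulk, with 6 zones from V1 (most bottom) to V6 (tip) sorted from each of 4 mice. All mice were C57BL/6 males aged 10 weeks on regular chow, and the labels name no treatment or genetic change, so the groups are told apart by their zone label alone. The libraries, from polyadenylated RNA, followed the mcSCRB-seq protocol, which tags each molecule. Cells were isolated from the jejunum and divided into zones by flow sorting (FACS) on antibodies against CD73 and CD26, so a zone is a gate on these proteins and not a dissected piece of villus.

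The villus is the finger-like fold through which the small intestine absorbs nutrients. Its enterocytes are born in the crypt, move up from the villus bottom and are shed at the tip, and on the way they pass through programs for defence, amino acid and sugar uptake, lipid export and, near the tip, adhesion and purine breakdown. The middle of the villus is known for high levels of nutrient transporters and brush border enzymes, the proteins of the microvillus surface. Secretory cells are interspersed, with goblet cells making mucus and enteroendocrine cells making hormones, while Paneth cells, which make antimicrobial peptides, sit at the crypt base.

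V5 libraries held 2139494, 946842, 1814608 and 1471031 unique molecular identifiers (UMIs, each molecule counted once near its 3-prime end) in mice 1 to 4, and V4 libraries held 1822822, 1286155, 1444989 and 806541. V5 was the deeper library in 3 of 4 mice. Levels are given as CPM, UMI counts scaled to a common library total with TMM factors, which correct for a few abundant genes, and values are listed in the order of mice 1 to 4. The transcripts that define enterocytes summed to 67780 ± 13000 CPM in V5 and 77570 ± 16600 CPM in V4 (SD, n = 4 each), and all 13 genes of that list passed the filter on low counts. Transcripts of stroma, endothelium and blood summed to 7.15 to 87.5 CPM in V5 and 5.40 to 15.7 CPM in V4, with the 87.5 CPM in mouse 2. The 10 most abundant genes held 18.3 ± 0.730% of UMIs in V5 and 21.1 ± 1.58% in V4 (SD, n = 4 each), lower in V5 in 4 of 4 mice (two-sided exact sign-flip p = 0.125, the smallest that 4 pairs allow).

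The genes of the sorted proteins check the zone labels and are no finding. Nt5e encodes CD73, a nucleotidase that makes adenosine (chromosome 9, 88327197 to 88372092, GRCm38), and had 76.1, 21.9, 63.1 and 20.7 CPM in V5, against 48.4, 8.86, 39.9 and 27.0 CPM in V4. It was higher in V5 in 3 of 4 mice and lower in mouse 4, the groups overlapped, and the log2 difference was 0.58 ± 0.23 (SE, unadjusted p = 0.0187). By zone Nt5e averaged 4.25 ± 0.956 CPM in V3, 31.0 ± 17.2 in V4, 45.4 ± 28.4 in V5 and 267 ± 132 in V6 (SD, n = 4). Dpp4 encodes CD26, a brush border peptidase (chromosome 2, 62330073 to 62412231), and had 511, 433, 521 and 397 CPM in V5, against 505, 483, 474 and 536 CPM in V4. Its log2 difference was -0.11 ± 0.14 (SE), and mice 1 and 3 were higher in V5 while mice 2 and 4 were lower. By genes that mark position, described further on, V5 was less tip-like than V4 in mice 2 and 4, while Nt5e was higher in V5 of mouse 2 and lower in V5 of mouse 4. Whether the V5 and V4 libraries of these mice match their labels was not tested, and each V5 minus V4 value carries this limit. Without mouse 2 and without mouse 4, left out in turn, edgeR called 0 genes in either direction, with 440 and 342 at an unadjusted p under 0.05. Each of these fits kept the other mouse, so the 0 calls do not bear on whether the labels match.

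No transcript was called different between V5 and V4. In an edgeR quasi-likelihood test blocked on mouse, 0 genes were higher and 0 lower in V5 at a Benjamini-Hochberg adjusted p under 0.05, which is 0% of 9328 genes tested in each direction, and the smallest adjusted p was 0.878. An unadjusted p under 0.05 was reached by 513 genes (5.50%), of which 245 had an estimate above 0 and 268 below. DESeq2 called 0 genes, with 395 at an unadjusted p under 0.05, and limma-voom called 0, with 578. These 0 calls rest on the filter on low counts and on the libraries in the fit. With no filter, 43 genes were called higher and 16 lower of 17680 tested, and a fit of V5 and V4 alone called 5 higher (Itln1, Lyz2, Mptx2, Nts and Tph1) and 0 lower. In the unfiltered fit the median prior degrees of freedom over genes were infinite. A gene with infinite prior degrees of freedom takes its spread from the trend over genes, and its own spread between mice has no weight. Whether this held for the called genes was not examined. Leaving out the V5 library of mouse 1 gave 2 higher genes, the haemoglobin genes Hba-a1 and Hba-a2, and leaving out that of mouse 3 gave 1, Tph1. These 2 settings were added after seeing the data.

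**Figure D1:**
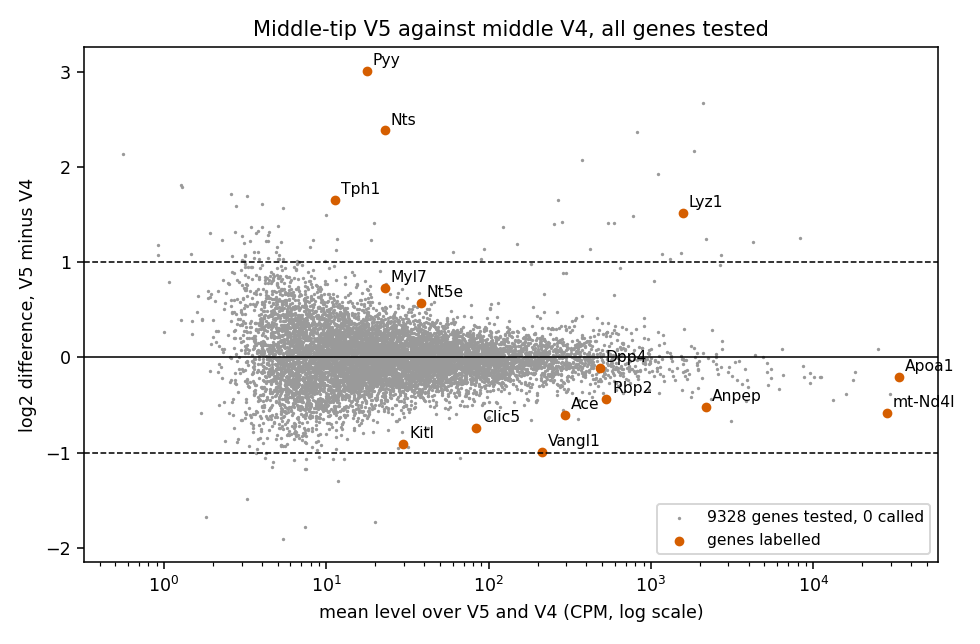
Each point is 1 of the 9328 genes tested, with its mean level over V5 and V4 (CPM, log axis) against its log2 difference, V5 minus V4. Dashed lines mark a 2-fold change, past which lie 100 estimates, and labelled genes are named in the text.

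Under a spread pooled over zones and moderated across genes, the data bound how far most transcripts could differ. For 7240 genes (77.6%) the 95% interval of the difference lay inside a 2-fold change either way, and for 3752 genes (40.2%) inside 1.5-fold. Of the 2728 genes averaging 50 CPM or more, 2655 (97.3%) lay inside 2-fold and 2308 (84.6%) inside 1.5-fold. Below 10 CPM the median SE was 0.403 on the log2 scale and 33% of 2401 genes were bounded within 2-fold, so for the others a 2-fold difference was not excluded. Over all genes tested, the median log2 difference was -0.0082, with quartiles at -0.17 and 0.16. An estimate past 2-fold was found for 100 genes, 81 above 0 and 19 below, at a median level of 5.40 CPM. Of these, 26 averaged 50 CPM or more over V5 and V4. At 1000 CPM or more, 83.3% of 120 genes were bounded within 2-fold. Of the Paneth and enteroendocrine lists, 0 of 14 and 0 of 16 tested genes were. V5 was higher in 4 of 4 mice for 627 genes (6.72%) and lower in 4 of 4 for 604 (6.48%). All 4 V5 libraries lay above all 4 V4 libraries for 62 genes (0.665%) and below them for 56 (0.600%).

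Among genes with an estimate above 0 in all 4 mice, at least 20 CPM and no provisional symbol, the 10 smallest p values included those of 3 chaperones or folding enzymes (Pdia6, Trap1 and Cct7), and none of the 10 passed the test. Whether the 10 were enriched in any group of genes was not tested. Dus1l, a dihydrouridine synthase that modifies transfer RNA (chromosome 11, 120789201 to 120796403), had 32.2, 42.6, 29.2 and 31.4 CPM in V5, against 22.7, 24.2, 13.8 and 24.3 CPM in V4. The groups did not overlap, the log2 difference was 0.67 ± 0.19 (SE, unadjusted p = 0.00119, adjusted p = 0.889 by edgeR), and the V4 value of mouse 3 lay well below the others. Myl7, a myosin light chain (chromosome 11, 5896637 to 5898782), had 26.6, 30.6, 23.4 and 34.8 CPM in V5, against 17.5, 18.5, 17.1 and 14.9 CPM in V4, with no overlap and a difference of 0.73 ± 0.23 (SE). Pdia6, a protein disulfide isomerase of the endoplasmic reticulum, had 94.5, 124, 61.3 and 93.7 CPM in V5, against 69.3, 90.3, 43.2 and 45.9 CPM in V4. Its groups overlapped through mouse 3 in V5 and mouse 2 in V4 (0.56 ± 0.17, SE). Trap1, a mitochondrial chaperone, had a difference of 0.54 ± 0.16 and Cct7, a subunit of the cytosolic chaperonin, one of 0.36 ± 0.12 (SE). Smad1, a transducer of BMP signals, was at 0.57 ± 0.18, with mouse 4 at 65.6 CPM in V5 and 18.9 CPM in V4 and mouse 3 nearly level at 47.3 CPM in V5 and 46.4 CPM in V4. Gsr, which recycles glutathione, was at 0.42 ± 0.14 and G3bp1, an RNA-binding protein of stress granules, at 0.42 ± 0.14. Pigyl (0.52 ± 0.18) and Hacd1, an enzyme of very long chain fatty acid synthesis (0.53 ± 0.19), complete the 10.

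Of the 10 genes named by the same rule with an estimate below 0, Ace, Clic5, Myo7b and Rbp2 act in the brush border or in absorption, and again none passed. Their grouping was not tested either. With no filter on low counts, Ace, Clic5 and Kitl were among the 16 genes called lower. Ace, a brush border peptidase that also makes angiotensin II (chromosome 11, 105967945 to 105989964), had 216, 195, 323 and 201 CPM in V5, against 264, 290.1, 451 and 415 CPM in V4. Each mouse was lower in V5, the groups overlapped through mouse 3 in V5 (323 CPM against 195 to 216 in the other V5 libraries), and the log2 difference was -0.60 ± 0.15 (SE, unadjusted p = 0.000222). Clic5, a protein of the microvillus cytoskeleton (chromosome 17, 44188584 to 44280172), had 64.3, 62.3, 66.0 and 58.9 CPM in V5, against 138, 74.1, 106 and 97.2 CPM in V4. Every V5 library lay below every V4 library (-0.74 ± 0.19, SE, unadjusted p = 0.000631). Rbp2, which carries retinol in enterocytes (chromosome 9, 98486115 to 98509781), had 325, 366, 565 and 516 CPM in V5, against 328, 625, 756 and 768 CPM in V4. Mouse 1 was level and the other mice lower in V5 (-0.44 ± 0.13, SE). Myo7b, the myosin at microvillus tips, was at -0.44 ± 0.13. Kitl, the ligand of the receptor Kit, was at -0.91 ± 0.25, with V4 of mouse 2 at 91.9 CPM and the other V4 libraries at 20.3 to 26.2. The others were Pdk2, an inhibitor of pyruvate oxidation (-0.52 ± 0.15), Thra, a thyroid hormone receptor (-0.54 ± 0.16), the kinase Stk24 (-0.59 ± 0.18), Slc25a51, the mitochondrial carrier of NAD (-0.53 ± 0.16), and the noncoding Brip1os (-0.56 ± 0.17). The 4 V5 libraries of Brip1os lay below all V4 libraries.

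**Figure D2:**
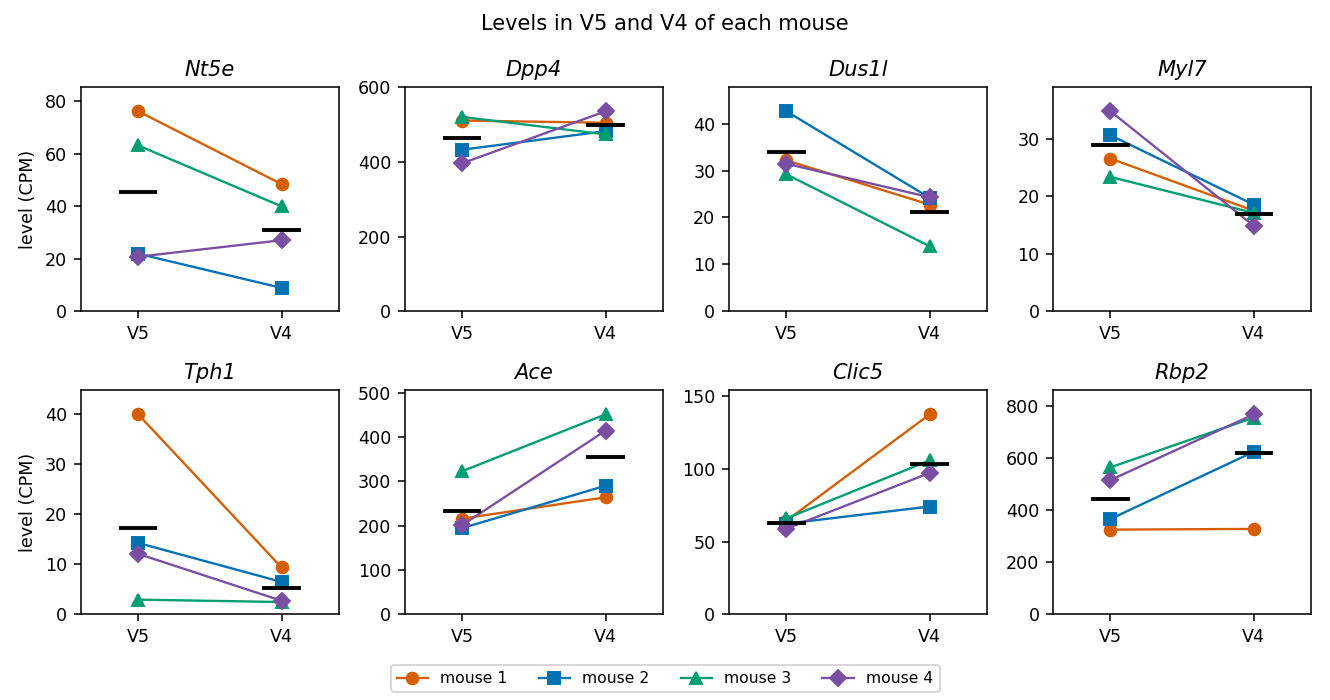
Levels (CPM, axes from 0) of 8 genes in V5 and V4, with a line per mouse and black bars for zone means. Dus1l and Myl7 do not overlap upward and Clic5 does not overlap downward, while Nt5e, Dpp4, Tph1, Ace and Rbp2 overlap, and none of the 8 passed the test.

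Transcripts for absorption and digestion leaned below 0 in most lists, with 0 called in any. Medians of the brush border, enterocyte, lipid, sugar, amino acid and microvillus lists were below 0 in mice 2 and 4 and above 0 in mouse 1. The 18 genes of iron, calcium and vitamin uptake had 10 estimates below 0 and a median of -0.052, at -0.013, 0.018, 0.046 and -0.12 in mice 1 to 4. Of 17 brush border enzymes tested, 16 had estimates below 0 and 4 an unadjusted p under 0.05, beside 5.50% of all genes at that p. Their median log2 difference was -0.22, beside -0.0082 for all genes. By mouse that median was 0.11, -0.41, -0.025 and -0.50. Anpep, aminopeptidase N, had 2374, 1160.1, 2212 and 1419 CPM in V5, against 2829, 1737, 4006 and 1642 CPM in V4 (-0.52 ± 0.22, SE). All 13 enterocyte-defining genes had estimates below 0 (median -0.15), as did 24 of 27 genes of lipid absorption (median -0.14) and 13 of 14 of sugar transport and fructose use (median -0.13). Apoa1, the main high-density lipoprotein protein, had 30514, 21934, 44425 and 29432 CPM in V5, against 26479, 27430.0, 45651 and 45899 CPM in V4, lower in V5 in mice 2, 3 and 4. Slc6a19, the neutral amino acid transporter, had 315, 211, 304 and 237 CPM in V5, against 303, 332, 341 and 393 CPM in V4, and mouse 1 was slightly higher in V5 while the others were lower. Of 21 microvillus cytoskeleton genes, 18 were below 0 (median -0.12), and of 25 genes of antigen presentation and interferon response 21 were below 0 (median -0.13). In bulk libraries, fewer cells of a type and less RNA per cell cannot be told apart.

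Transcripts for translation and proliferation leaned the other way, again with 0 called. Of 78 ribosomal protein genes, 74 had estimates above 0 and 15 an unadjusted p under 0.05, with a median of 0.22, beside 5.50% at that p among all genes. By mouse the median was -0.14, 0.48, 0.10 and 0.44. Rplp0, a protein of the ribosomal stalk, had 1628, 2498, 1079 and 1895 CPM in V5, against 1769.8, 1785, 795 and 1414 CPM in V4 (0.30 ± 0.13, SE). Translation factors had a median of 0.11 (24 of 33 above 0), and Eef1a1, the main elongation factor, was at 0.20 ± 0.13. Proliferation genes had a median of 0.35 (26 of 28 above 0, by mouse -0.17, 0.48, 0.35 and 0.59). Ccnd2, a cyclin of the G1 phase, had 134, 188, 114 and 163 CPM in V5, against 154, 133, 121 and 54.0 CPM in V4, and the 54.0 CPM of V4 in mouse 4 lay below every other value. Of 14 stem and crypt genes, 11 had estimates below 0 (median -0.12). Cytosolic chaperones had a median of 0.13 and endoplasmic reticulum folding genes 0.049.

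The share of UMIs on mitochondrially encoded genes was 7.62, 5.70, 8.14 and 7.68% in V5 and 10.2, 7.42, 13.2 and 6.99% in V4. It was lower in V5 in mice 1, 2 and 3 and higher in mouse 4 (two-sided exact sign-flip p = 0.25). All 11 genes of the list had estimates below 0 (median -0.38), with medians of 0.068, -0.80, -0.45 and -0.17 in mice 1 to 4. Their TMM-scaled sum was 62060 ± 8200 CPM in V5 and 85380 ± 26000 CPM in V4 (SD, n = 4 each), lower in V5 in 4 of 4 mice. The sum and the share differ in scaling and in the genes counted. In mouse 4 the TMM factor was 1.016 for V5 and 0.9182 for V4. Dividing the shares by these factors is enough to put V5 below V4 in that mouse. Whether the genes counted would alone do the same was not tested. Of single genes, mt-Cytb, a subunit of respiratory complex III, had 24995, 22843, 26677 and 27725 CPM in V5, against 26029, 28447, 43037 and 36836 CPM in V4 (-0.38 ± 0.18, SE). Near copies in the nuclear genome, counted under Gm28437, Gm29216 and Gm10925, share reads with these genes, so single values are uncertain. The nuclear genes of the same respiratory chain lay near 0, with a median of 0.027 over 69 genes, 42 above 0 and 69 bounded within 2-fold. Genes of the citric acid cycle (median 0.0091, 21 genes), the proteasome (0.068, 31 genes), the lysosome (-0.054, 24 genes) and fatty acid oxidation (-0.052, 27 genes) were all bounded within 2-fold except 1 gene of the last.

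The list medians farthest above 0 were those of Paneth and enteroendocrine markers. Paneth cell transcripts summed to 35420, 46170, 11260 and 5682 CPM in V5, against 26340, 8575, 7938 and 2487 CPM in V4, higher in V5 in 4 of 4 mice (two-sided exact sign-flip p = 0.125, the smallest that 4 pairs allow). The sum was 7547, 6284, 23990 and 6778 CPM in V3 and 10780, 4454, 15290 and 10600 CPM in V6. From V3 to V4 it rose in mice 1 and 2 and fell in mice 3 and 4, and from V5 to V6 the reverse. All 14 tested members had estimates above 0 (median 1.11), and 2 had an unadjusted p under 0.05, beside 5.50% of all genes. The main fit called 0 of the 14. Lyz1, the Paneth lysozyme, had 2747, 4520.3, 1316 and 571 CPM in V5, against 1767, 794, 571 and 231 CPM in V4 (1.52 ± 0.63, SE). Defa24, an alpha-defensin, had 15760.0, 23027, 3798 and 2639 CPM in V5, against 12816, 4188, 3086 and 1013 CPM in V4, and its reads cannot be told apart from those of near-identical defensin genes. In the unfiltered fit Lyz1 and Defa24 were among the genes called higher, so the 0 calls depend on the fit. Lyz1 and the hormone gene Pyy were chosen after their values were seen. Since Paneth cells sit in the crypt, these sums describe RNA in the sorted fractions, and its source was not tested.

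Enteroendocrine genes had a median of 0.59 with 14 of 16 above 0, and 0 called. Their sum was 1054, 734, 835 and 1055 CPM in V5, against 749, 259.5, 999 and 733 CPM in V4, lower in V5 in mouse 3 and higher in the other mice (two-sided exact sign-flip p = 0.25). Tph1, the enzyme that begins serotonin synthesis (chromosome 7, 46644641 to 46672537), had the smallest p of all genes tested and was named for it after its values were seen. It had 39.8, 14.2, 2.92 and 12.04 CPM in V5, against 9.32, 6.45, 2.44 and 2.70 CPM in V4, with a difference of 1.66 ± 0.40 (SE, unadjusted p = 9.41e-05, adjusted p = 0.878 by edgeR), and mouse 3 was nearly level. Nts, neurotensin, had 70.0, 5.47, 15.2 and 63.6 CPM in V5, against 8.74, 4.03, 8.96 and 6.75 CPM in V4 (2.39 ± 1.08, SE), high in V5 of mice 1 and 4. Pyy, peptide YY, had 42.9, 49.2, 18.7 and 16.1 CPM in V5, against 4.08, 0, 8.96 and 2.70 CPM in V4 (3.01 ± 1.18, SE), with every V5 library above every V4 library and no count in V4 of mouse 2. The unfiltered fit called Tph1, Nts and Pyy higher, and the fit of V5 and V4 alone called Tph1 and Nts. Goblet cell transcripts summed to 12380 ± 2830 CPM in V5 and 12540 ± 1410 CPM in V4 (SD, n = 4 each), and 12 of 20 estimates were above 0. Tuft cell genes (5 tested, median -0.018) and intraepithelial leukocyte genes (5 tested, median 0.25) had 0 called. Tuft sums were 37.3 to 71.8 CPM in V5 and 25.6 to 69.2 CPM in V4, and leukocyte sums 131 to 209.9 CPM in V5 and 49.97 to 180.1 CPM in V4.

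**Figure D3:**
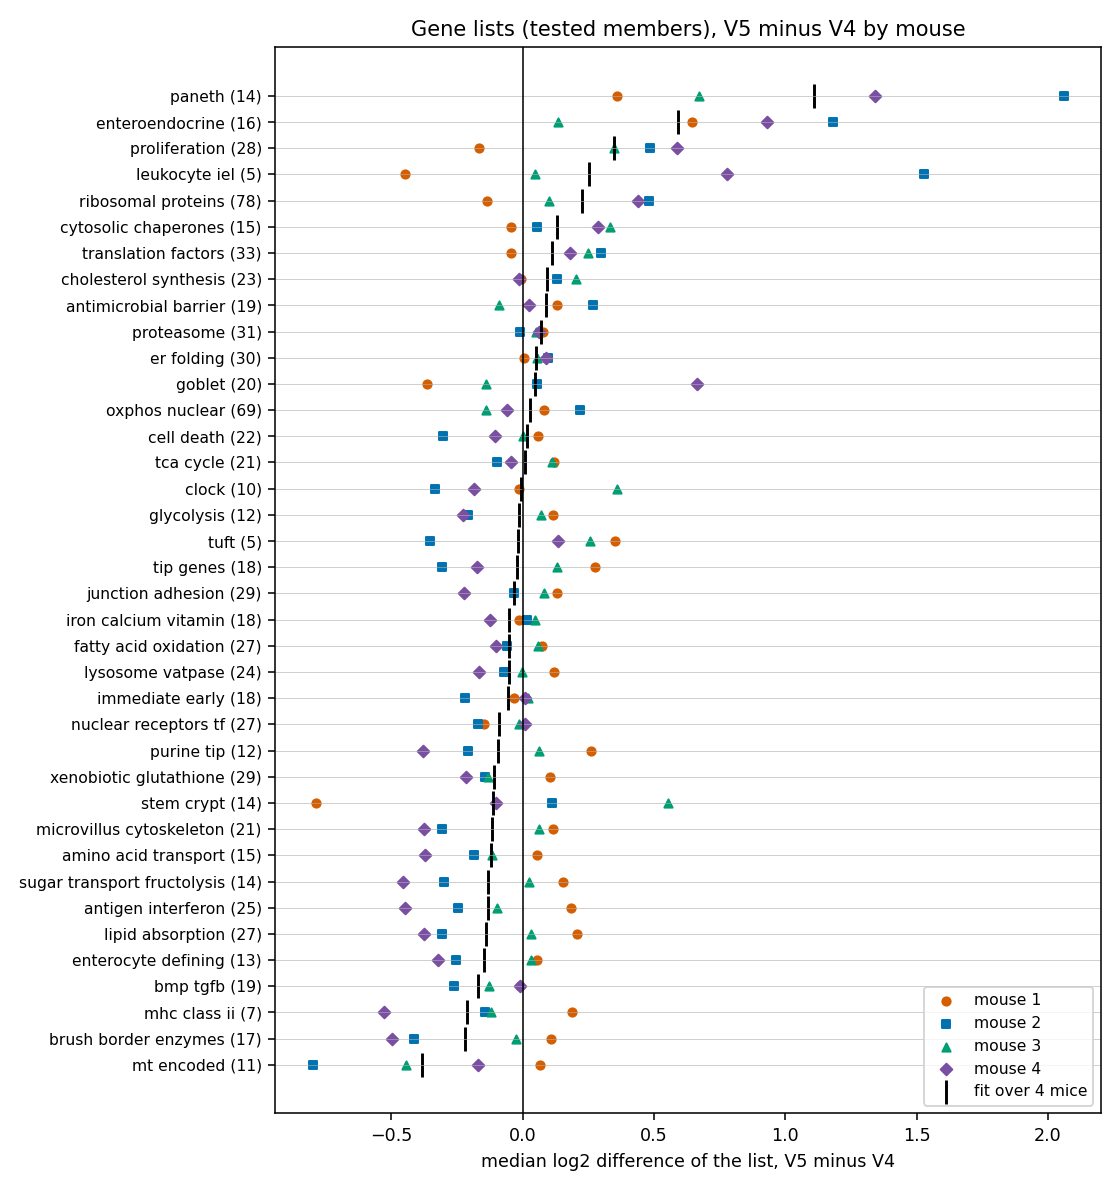
Median log2 difference, V5 minus V4, of each gene list with at least 5 tested members (number in brackets), by mouse and from the fit over 4 mice. Paneth and enteroendocrine lists lie farthest above 0 and mitochondrially encoded genes farthest below, with 0 genes called in any list.

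The sign of these lists turned with the mouse. Of 38 lists with a tested member, 18 had a median above 0 in mouse 1 and below 0 in mice 2 and 4, and 6 had the reverse. Medians above 0 in all 4 mice were found for 3 lists and below 0 in all 4 for 1. The list of 18 tip genes had a median of -0.023, at 0.27, -0.31, 0.13 and -0.17 in mice 1 to 4. The 12 purine breakdown genes had one of -0.093, and Ada, adenosine deaminase and their most abundant member, had 2047, 1298, 3178 and 1306 CPM in V5, against 1350.2, 1422, 2344 and 1773 CPM in V4. Ada was higher in V5 in mice 1 and 3 and lower in mice 2 and 4. From a fit that left out every V5 and V4 library, 479 genes of at least 20 CPM were called higher in V6 than in V3 and 72 lower, a choice made after seeing the data. For the 479, the V5 minus V4 mean of log2(CPM + 1) was 0.15, -0.20, 0.046 and -0.23 in mice 1 to 4, with 358, 118, 282 and 102 of 479 genes higher in V5. The mean over mice was -0.057 ± 0.185 (SD, n = 4), and -0.13, -0.0098, -0.092 and -0.0012 without mouse 1, 2, 3 or 4. For the 72, it was -0.14, 0.25, 0.22 and 0.31, with a mean of 0.16 ± 0.20 (SD, n = 4), between 0.11 and 0.26 with 1 mouse left out and highest without mouse 1. Placed between V3 at 0% and V6 at 100%, the 479 genes put V5 at 42.0, 34.4, 74.8 and 39.9% of the way and V4 at 29.4, 54.8, 69.9 and 66.7%. By these genes V5 lay nearer the tip than V4 in mouse 1 and slightly so in mouse 3, and farther from it in mice 2 and 4. The 72 genes put V5 at 60.8, 7.37, 82.4 and 4.10% and V4 at 42.7, 39.0, 122 and 83.7%, so by them V5 lay farther along than V4 in mouse 1 and less far along in mice 2, 3 and 4, with V4 of mouse 3 past its V6.

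**Figure D4:**
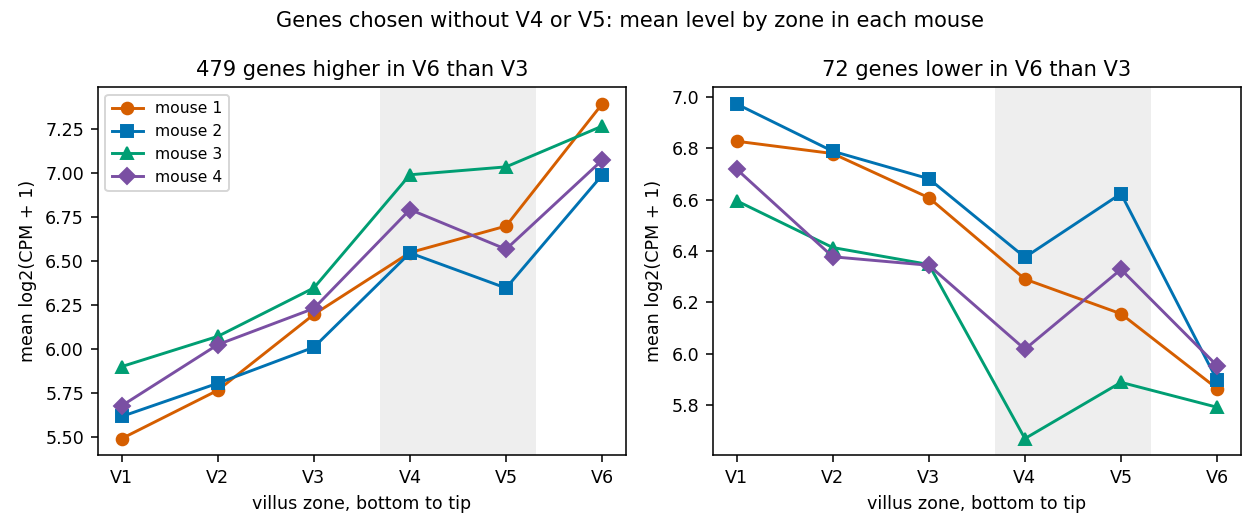
Mean log2(CPM + 1) by zone, from V1 to V6, with a line per mouse, for 479 genes higher and 72 genes lower in V6 than in V3, with V4 and V5 shaded. From V4 to V5 the lines of mice 2 and 4 turn back in both panels, and the line of mouse 1 goes on toward the tip.

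Across 2703 genes with at least 50 CPM over the 24 libraries, the per-gene V5 minus V4 differences of 2 mice correlated with a Pearson r of -0.11 to 0.37 over the 6 pairs of mice (mean 0.14). The lowest was between mice 1 and 4 and the highest between mice 2 and 4. The same measure ran from 0.048 to 0.54 (mean 0.34) for V4 minus V3 and from 0.18 to 0.61 (mean 0.35) for V6 minus V5, so the ranges overlapped. These are correlations across genes, which are not independent replicates, and the steps share the V4 and V5 libraries.

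The step from V4 to V5 lies between 2 steps in which genes did change. In the same fit, V4 minus V3 called 199 genes (2.13%), 181 higher and 18 lower, and V6 minus V5 called 140 (1.50%), 137 higher and 3 lower. These 2 counts moved with single mice and libraries, to 31 to 320 and to 55 to 165. For V4 minus V3 the count was 119, 31 and 41 without mouse 2, 3 or 4, and 320, 106, 81 and 78 without the V4 library of mouse 1, 2, 3 or 4. For V6 minus V5 it was 55, 83 and 65 without mouse 1, 2 or 4, and 87, 71 and 76 without the V5 library of mouse 1, 2 or 4. Over all genes the median absolute log2 difference was 0.165 for V5 minus V4, 0.213 for V4 minus V3 and 0.177 for V6 minus V5. Of the 283 genes called in either neighbouring step, 212 had a V5 minus V4 interval inside 2-fold. Ada had a log2 difference of 1.97 ± 0.26 for V4 minus V3, 0.10 ± 0.26 for V5 minus V4 and 1.35 ± 0.26 for V6 minus V5 (SE). Gprc5a, a retinoic acid induced receptor, had 1.87 ± 0.24, 0.17 ± 0.19 and 1.25 ± 0.17 (SE) for the same steps. Apoa4, a chylomicron apolipoprotein chosen after its values were seen, had 1.02 ± 0.17, -0.16 ± 0.17 and 0.81 ± 0.17 (SE). Krt20, a keratin of mature villus cells, had 0.63 ± 0.15, -0.047 ± 0.15 and 0.39 ± 0.15 (SE), of which the first was called.

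**Figure D5:**
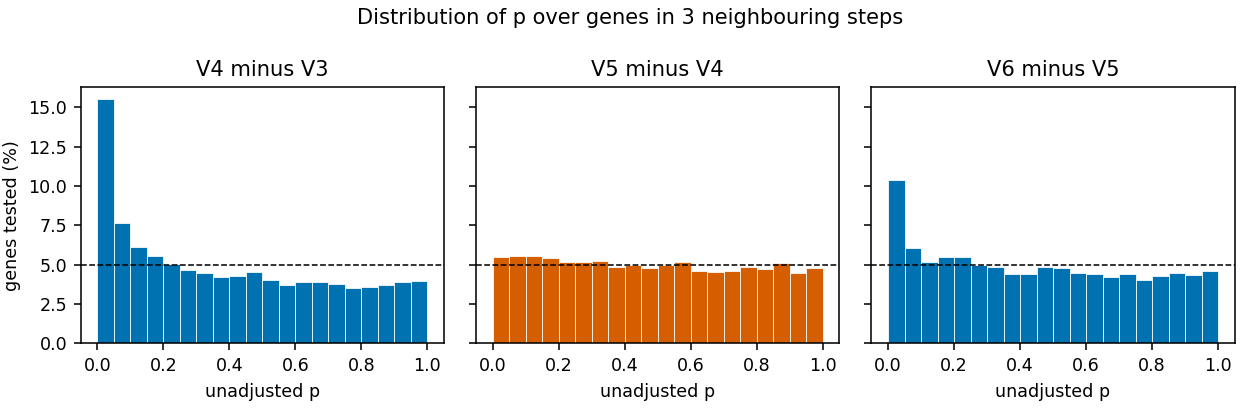
Share of the 9328 genes in each 0.05-wide bin of unadjusted p for 3 neighbouring steps, with the dashed line at the 5% of an even spread. V5 minus V4 holds 5.50% in the lowest bin, V4 minus V3 15.5% and V6 minus V5 10.4%.

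A change in 1 step and not in the next does not show that the steps differ, so the difference between steps was tested. For V5 minus V4 less V6 minus V5, edgeR called 0 genes (0%), with 759 at an unadjusted p under 0.05 and a smallest adjusted p of 0.0734. DESeq2 called 1 and limma-voom 2. For V5 minus V4 less V4 minus V3, edgeR called 0 (0%), with 1110 at an unadjusted p under 0.05 and a smallest adjusted p of 0.0762, while DESeq2 called 40 and limma-voom 0. Without mouse 1 this second count was 96, without the V4 library of mouse 1 it was 70, without the V5 library of mouse 3 it was 42 and without mouse 2 or its V4 library it was 2 or 1. The first count was 1 or 2 without mouse 2, its V4 library, or the V5 library of mouse 1 or 3. The steps share the V4 and V5 libraries, so a high or low V4 or V5 value moves both with opposite signs. Step-difference genes were named only from those with at least 20 CPM over V5 and V4 and no provisional symbol. Among those, the smallest p values of the second test belonged to Susd2, a membrane protein (-1.61 ± 0.32, SE), Clca4a, a chloride channel accessory protein with near copies (-1.87 ± 0.35, SE), and Ace (-1.18 ± 0.25, SE). Above 0, the 5 smallest included those of Trap1 (1.22 ± 0.29, SE), Pdia6 (1.25 ± 0.29, SE) and Myl7 (1.59 ± 0.41, SE). With them stood Klf5, a transcription factor of crypt cells (1.07 ± 0.25, SE), and Pdia4, a folding enzyme of the endoplasmic reticulum (1.17 ± 0.29, SE). In the first test the smallest p was that of the sorted marker Nt5e (-2.01 ± 0.37, SE), followed by Dus1l above 0 (1.37 ± 0.32, SE) and Kitl below 0 (-1.60 ± 0.43, SE).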

How the data were processed

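The values are raw, whole-number UMI counts for 17811 genes in 24 libraries, as the authors deposited them. The submitters' processing notes name bcl2fastq 2.15.0.4 and the GRCm38 build. The aligner and annotation release were not given in the sources used here. In total 131 genes had no count, and GENCODE M21 gave coordinates for 17741.

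A quasi-likelihood model of edgeR 4.0.16 (R 4.3.3) held zone and mouse as terms over all 24 libraries, with TMM factors and 15 residual degrees of freedom. Low genes were removed with filterByExpr, set to a count of 10 and a total of 15 with zone as the group. Intervals are 95% and cover no mice beyond these 4. Their spread was pooled over all 6 zones and moderated toward that of other genes (median prior degrees of freedom 20.6). The spread of the 4 paired V5 minus V4 differences of a gene was not used alone. A gene was called when its Benjamini-Hochberg adjusted p, over all genes tested, was under 0.05. Alternatives used DESeq2 1.42.0 and limma 3.58.1.

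Mice pair the libraries because 1 animal gave all its zones. Deviations from the zone means of V5 and V4 in the same mouse correlated with r of 0.642, 0.579, 0.800 and 0.565 over 2703 genes. Pairs of the same zone, and V5 with V4 of the same mouse, held no copies (chi-square per degree of freedom 5.28 to 22.1), and other pairs were not compared. V5 and V4 of a mouse shared an i7 index in the deposited sample table.

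The members and gene lists were chosen with earlier results of these data known. The named genes were the sort genes, the 10 smallest p values in each direction among genes of at least 20 CPM with 1 direction in 4 mice, the smallest p and the most abundant member of each list, the 5 smallest p values in each direction of the step differences, and the 10 most abundant genes. The step-difference genes also had at least 20 CPM over V5 and V4 and no provisional symbol. Genes outside these groups are said to be named after their values were seen.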

Additional observations from a re-analysis of the deposited data

Results flagged for a closer look

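In 13 of 270 groups of 4 libraries examined, 1 library stood apart from the other 3 (by Dixon's ratio of its gap to the whole range), a share near the 1 in 20 that chance gives. In V5 these were Ace in mouse 3 at 323 CPM (others 195 to 216), mt-Nd2 in mouse 1 at 2009.7 CPM (others 1416 to 1467), Bak1, a cell death gene, in mouse 3 at 131 CPM (others 50.6 to 63.6), Atoh1, a factor of the secretory cell lineages, in mouse 2 at 21.9 CPM (others 9.34 to 11.2) and Nudt21 in mouse 3 at 32.7 CPM (others 52.1 to 55.8). The sum of stroma, endothelium and blood transcripts in V5 of mouse 2 was 87.5 CPM (others 7.15 to 14.7). In V4 these were Dus1l in mouse 3 at 13.8 CPM (others 22.7 to 24.3), Kitl in mouse 2 at 91.9 CPM (others 20.3 to 26.2), Ndufs4, a complex I subunit, in mouse 2 at 96.7 CPM (others 125 to 131), and the nuclear copies of mitochondrial genes Gm29216 at 26041 CPM (others 15138 to 16245) and Gm10925 at 25038 CPM (others 11968 to 12233), both in mouse 2. Vangl1, a planar polarity gene, stood apart in mouse 3 in both zones, at 580.5 CPM in V5 (others 0 to 1.34) and 1110.0 CPM in V4 (others 0 to 4.08).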

How the results depend on the processing

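The 0 calls of V5 minus V4 were also found with DESeq2 size factors, total UMI scaling, a mean of at least 50 CPM, mitochondrial genes left out, thinning to 806541 UMIs, DESeq2 and limma-voom. Without the replicate block, V5 minus V4 again had 0 calls, with 171 genes at an unadjusted p under 0.05, and V4 minus V3 had 6 calls and V6 minus V5 had 25. With no filter on low counts the calls were 43 higher and 16 lower for V5 minus V4, 101 and 182 for the 2 step differences (next step, then previous step), 328 for V4 minus V3 and 318 for V6 minus V5. V5 and V4 alone, paired by mouse, gave 5 higher. A mean of at least 50 CPM gave 2628 genes of 2702 bounded within 2-fold, 2 calls in the previous-step difference and 53 for V6 minus V5. Thinning gave 4 calls in that difference, 98 for V4 minus V3 and 56 for V6 minus V5. DESeq2 called 1 and 40 genes in the step differences and limma-voom 2 in the next-step one. Leaving out 1 mouse or 1 V5 or V4 library gave 0 to 2 genes higher, 0 lower, 0 to 2 in the next-step difference, 0 to 96 in the previous-step one, 31 to 320 for V4 minus V3, 55 to 165 for V6 minus V5 and 5977 to 6964 genes bounded within 2-fold. The single-library settings were added after seeing the data, and the cause of these changes was not tested. Total UMI scaling moved the median of all genes to 0.055. Of 2715 named-gene values under the alternatives, 72 moved by over 1 SE and 21 passed the test. The sign was opposite in 81 of the 2715, from 24 of the 120 named genes, and in 46 of 582 list values. By level the median SE was largest under 10 CPM, while some genes above 1000 CPM were also not bounded within 2-fold. The 4 mice limit all single-library values.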

Other observations

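Vangl1 (chromosome 3, 102153583 to 102204693, GRCm38) was chosen after its values were seen. It had 273, 421, 471, 1110.0, 580.5 and 436 CPM in V1 to V6 of mouse 3. In mice 1, 2 and 4 it had 0 to 4.08 CPM over the same 6 zones. The level in mouse 3 was high in every zone, so V5 minus V4 of this gene rests on 1 animal.

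Other lists had 0 genes called in V5 minus V4. Immediate-early genes had a median of -0.055 over 18 tested, with Fosl2 at -0.47 ± 0.26 and Junb at -0.037 ± 0.13 (SE). Cholesterol synthesis had a median of 0.093 over 23, with Cyp51, lanosterol demethylase, at 18.9, 28.4, 14.6 and 29.4 CPM in V5, against 16.3, 16.1, 8.14 and 10.8 CPM in V4 (0.72 ± 0.26, SE). Clock genes had a median of -0.0060 over 10. Xenobiotic and glutathione genes had a median of -0.11 over 29, with Gpx4, which reduces lipid peroxides, at -0.31 ± 0.13 (SE). Glycolysis had a median of -0.013 over 12, with Gapdh at 119.5, 82.0, 234 and 219 CPM in V5, against 139, 127, 379 and 265 CPM in V4 (-0.46 ± 0.15, SE).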
